A study of Homo sapiens with 8 samples.

Results

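The genes described here lie on the proximal long arm of chromosome 8 (8q). They are the protein-coding genes of the deposited raw counts whose start lies between 45 and 100 Mb on GRCh38 and whose reads summed to at least 1200 over the 8 libraries, with 1 gene of the window left out by the rule and not analysed here. This gave 94 genes of the 58735 rows of the table, and of the 194 protein-coding genes listed in that window. The window was picked because genes of 8q stood higher in miR-155OE than in CTRL in these same libraries, so the fold changes below are a description and no p-value is given for them.

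All libraries came from EPC2-hTERT, a telomerase-immortalised line of human esophageal epithelial cells, cultured as a layered epithelium at the air-liquid interface (3D-ALI). Both groups spent 2 days in growth medium on inserts with 0.4 µm pores and 5 days in 1.8 mM calcium before exposure to air. There were 4 control libraries (CTRL; genotype Control) and 4 libraries of cells made to overexpress miR-155-5p stably with a lentivirus (miR-155OE). Whether the overexpressing line was a single clone, and what the control cells carried, are not given in the sources used here. Nothing in the labels says that the numbered libraries were separate cultures, so measures of spread cover these samples only and may be technical.

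Gene dosage is the number of copies of a gene in a cell. The RNA of most genes follows their copy number, while some genes are held near their usual level by feedback or are set by regulators that outweigh dosage. Gain of 8q is common in squamous and other epithelial cancers, and its proximal part carries genes of very different roles, from ribosomal proteins and DNA repair to transcription factors. DNA copy number was not measured in this series.

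The study asked what excess miR-155-5p does to the epithelium. The sequence of the microRNA is shown because its seed, bases 2 to 8, in capitals, guides which messages it can bind. The gene of the microRNA lies on chromosome 21 (RefSeq, GRCh38.p14).
hsa-miR-155-5p: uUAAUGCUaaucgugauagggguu
The matching heptamer in a message, AGCATTA, was searched on the sense strand of the longest 3′ UTR that GENCODE 29 gives each gene. It occurred in 18 of the 94 genes (19.1%) and in 1474 of 12538 tested genes with such a UTR (11.8%). The 3′ UTRs were longer in the genes with a match, with a median of 2937 bases against 1560. The 12538 genes also include genes under the read minimum, and their UTR lengths were not compared with those of the 94. The median log2 fold change was 0.24 in the 18 genes with a match and 0.28 in the other 76. Over all tested genes with such a UTR it was −0.01 with a match and 0.00 without. These differences were not tested. Of the 18, TP53INP1, a stress protein of the p53 pathway and a reported miR-155 target, held 1 match. Its level was 60.7, 64.1, 62.8 and 68.0 CPM (counts scaled to a common, TMM-adjusted library total) in CTRL replicates 1 to 4. In miR-155OE it was 75.1, 70.3, 82.9 and 70.9 CPM, each above every control, a log2 fold change of 0.23 (SE 0.07).

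Library totals ran from 33.4 to 52.7 M counts. All 94 genes passed the low-count filter, so each was tested among 15135 genes. Keratinocyte markers were abundant in every library (KRT5 from 8120 to 11833 CPM, TP63 from 214 to 267 CPM). KRT4, a keratin of the esophageal surface, was at 60.4, 111, 126 and 83.8 CPM in the CTRL libraries, and the miR-155OE libraries gave 5.71, 47.9, 3.18 and 12.2 CPM, not called, with replicate 3 lowest and replicate 2 highest. Its log2 fold change was −2.47. KRT13, its partner, was at 4.15 to 17.6 CPM in CTRL and 0.372 to 8.17 CPM in miR-155OE (−1.95, not called). Of the 13 markers of other cells, COL1A2, DCN and TYR had 0 reads and 6 more had 7 or fewer reads in all. The 13 summed to 96.1 to 150 CPM in CTRL and 102 to 225 CPM in miR-155OE, nearly all of it COL1A1, and to 3.32 to 4.59 and 2.73 to 4.42 CPM without it. The part of these genes in the results was not tested. In bulk RNA, fewer cells of a type and less RNA per cell cannot be told apart.

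Most genes of the window stood a little higher in miR-155OE. The median log2 fold change of the 94 genes was 0.26, a rise of 20.0% in level, and 89 of them were above 0. The 10th and 90th percentiles were 0.05 and 0.55. The range ran from −0.55 for ZBTB10 to 1.39 for GGH. Over all tested genes the median was −0.01. The spread of fold changes among the 94 genes, an SD of 0.25, was close to that of 9542 genes of other chromosomes under the same filters (0.26), whose median was 0.00. The window differed from them in its centre and had a similar width.

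**Figure D1:**
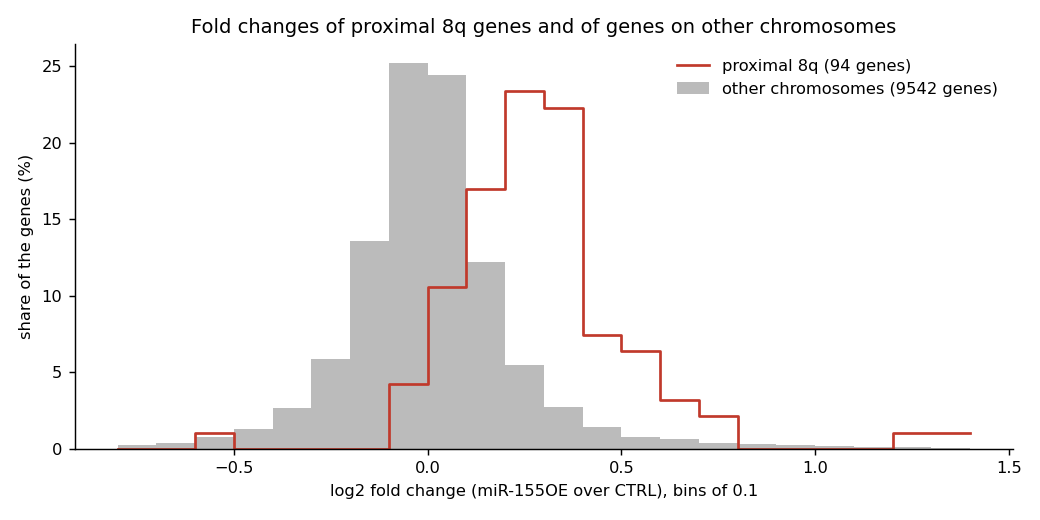
Share of genes (%) in bins of 0.1 of the log2 fold change, miR-155OE over CTRL, for 94 proximal 8q genes (line) and 9542 genes of other chromosomes (bars); 83 of the latter lie outside the range drawn. The proximal 8q genes peak between 0.2 and 0.4, and 89 of 94 lie above 0.

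The size of the shift in a single gene was close to what these libraries resolve, since the median SE over the 94 genes was 0.10. With edgeR (quasi-likelihood, group alone, Benjamini-Hochberg adjustment over all genes), 17 of the 94 (18.1%) were called higher, where 2.17% of all tested genes were called in that direction and 3.22% in either. None was called lower (0 of 94), where 1.05% of all genes were. With the replicate number as a block, 52 were called higher and 1 lower, beside 7.43% and 5.17% of all genes (12.6% in either direction). The authors' deposited table calls 35 of the 94 higher and 1 lower, beside 3.03% and 1.70% of the genes it lists. In 38 genes (40.4%) every miR-155OE library lay above every CTRL library, and in 1 gene every one lay below, beside 6.16% and 5.25% of all tested genes. Because the window was picked from this contrast, these counts describe it and support nothing further. The count of 17 depended on which libraries were used. It became 3 when any of the first 3 CTRL replicates or miR-155OE replicate 3 was left out, and 8 without CTRL replicate 4. Leaving out miR-155OE replicate 1 gave 2 such genes, while 40 were called once replicate 2 of that group was dropped. The share of all tested genes called in each of these fits is not given here. A change in the window and a change over all genes therefore cannot be told apart in these counts.

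The 94 genes shared a pattern over the libraries. Against the CTRL mean of each gene, their median stood at −0.07, −0.01, 0.03 and 0.03 in CTRL replicates 1 to 4. In miR-155OE replicates 1 to 4 it stood at 0.29, 0.17, 0.41 and 0.21 (mean 0.27 ± 0.11, SD, n = 4). All 4 miR-155OE libraries were above all 4 controls, replicate 3 highest and replicate 2 lowest. Of the 94 genes, 59 (62.8%) had their highest miR-155OE level in replicate 3, which was the highest library for 25.7% of genes on other chromosomes. Replicate 2 was the lowest for 49 (52.1%), against 29.6% elsewhere, and replicate 4 for 32 (34.0%), against 25.8%. Not every stretch kept the order of the whole. Between 85 and 90 Mb (8 genes) the medians were 0.21, 0.18, 0.14 and 0.08 in miR-155OE replicates 1 to 4. Replicate 4 was also the lowest between 60 and 65 Mb (0.15, replicate 2 at 0.20) and between 90 and 95 Mb (0.15, replicate 2 at 0.29). Subtracting each library's own median lowered the typical SD of a gene over the miR-155OE libraries from 0.16 to 0.13. In CTRL the same step changed it from 0.12 to 0.11. The medians came from these same genes, so the step by itself tends to lower their SD. Genes of other chromosomes, without this step, had a typical SD of 0.13 in miR-155OE.

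The rest of chromosome 8 kept the same order of libraries. The 128 genes of 8q beyond 100 Mb had medians of 0.33, 0.16, 0.40 and 0.21 in miR-155OE replicates 1 to 4, while on the short arm (8p) 118 genes stood at −0.52, −0.21, −0.59 and −0.29. Replicate 3 was the furthest from the controls and replicate 2 the nearest in all 3 stretches. The median of the proximal genes (0.26) lay near that of the distal ones (0.29), and their difference was not tested. Medians over other chromosomes stayed between −0.01 and 0.01 in all 8 libraries.

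**Figure D2:**
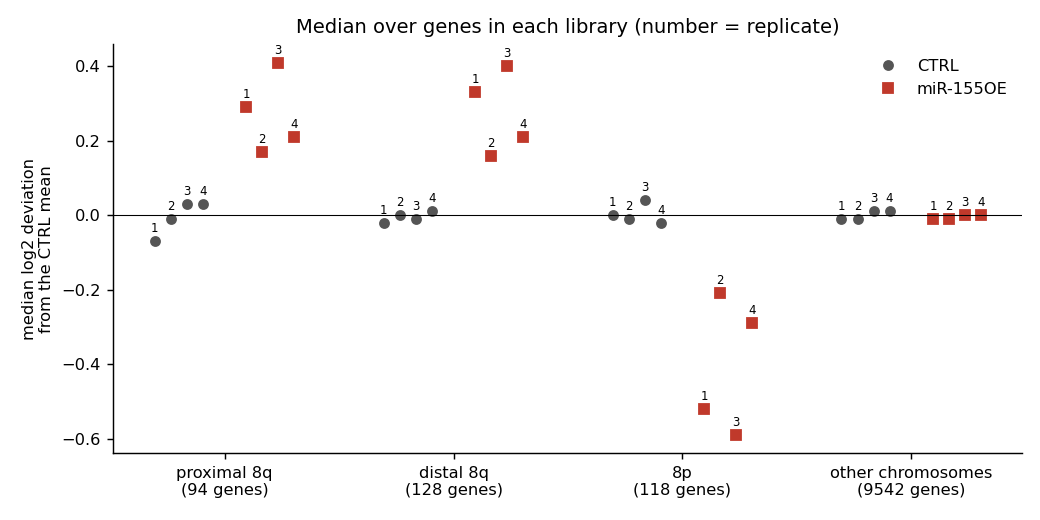
Median over genes of the log2 deviation from the CTRL mean, in each library (circles CTRL, squares miR-155OE, digits the replicate), for proximal 8q, distal 8q, 8p and other chromosomes. Replicate 3 of miR-155OE lies furthest from 0 and replicate 2 nearest in the 3 stretches of chromosome 8.

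The rise ran along the whole window. In bins of 5 Mb holding at least 5 of the genes, all 10 medians were above 0, from 0.13 between 55 and 60 Mb (11 genes, TMEM68 to NSMAF) to 0.38 between 80 and 85 Mb (7 genes, TPD52 to SNX16). The 6 genes nearest the centromere, between 45 and 50 Mb, had a median of 0.22, and the 14 genes between 95 and 100 Mb had 0.27. Across the 94 genes, Spearman's rho of the fold change with start position was 0.03. Neighbouring genes were no more alike than any others: the median absolute difference was 0.18 over the 93 adjacent pairs and 0.18 over all 4371 pairs. Nor did the fold change go with the level per length (rho −0.05), the length of the gene model (−0.08), the genomic span (0.13) or the 3′ UTR length (−0.07). These correlations are across genes that share the same 8 libraries, and genes are not independent replicates.

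To sort the genes, the 95% interval of each fold change was set against the median of the 94. A gene whose interval held the median is said to follow the rise, one wholly above it to exceed it, and one wholly below it to escape it. By this measure 72 genes followed (76.6%), 10 exceeded and 12 escaped. To follow means only that the interval held the median, so genes with wide intervals fall there, such as GDAP1 (0.66, SE 0.29). Some of those intervals also held 0, as for SDR16C5 (0.04, SE 0.17) and CALB1 (0.22, SE 0.23). The 76.6% is therefore not a share of genes shown to rise. Of all tested genes, 3.17% had intervals wholly above the same value and 49.0% wholly below. With the replicate block 65 followed, 15 exceeded and 14 escaped, beside 4.43% above and 56.8% below among all genes. The tested genes centre near 0 (median −0.01), so few above 0.26 and many below is what their centre gives. Those shares therefore do not show that the 94 genes are unusual. Set against 0 instead, near their own centre, 19.3% of all tested genes had an unadjusted edgeR p under 0.05 on group alone. With 76.6% of the 94 following, the share off their own median was not far from that. Departures from the centre are therefore not shown to be more frequent in these genes than in all genes. Of the 128 distal 8q genes, 16 had intervals wholly above 0.26 and 17 wholly below. The intervals are not adjusted for the number of genes.

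**Figure D3:**
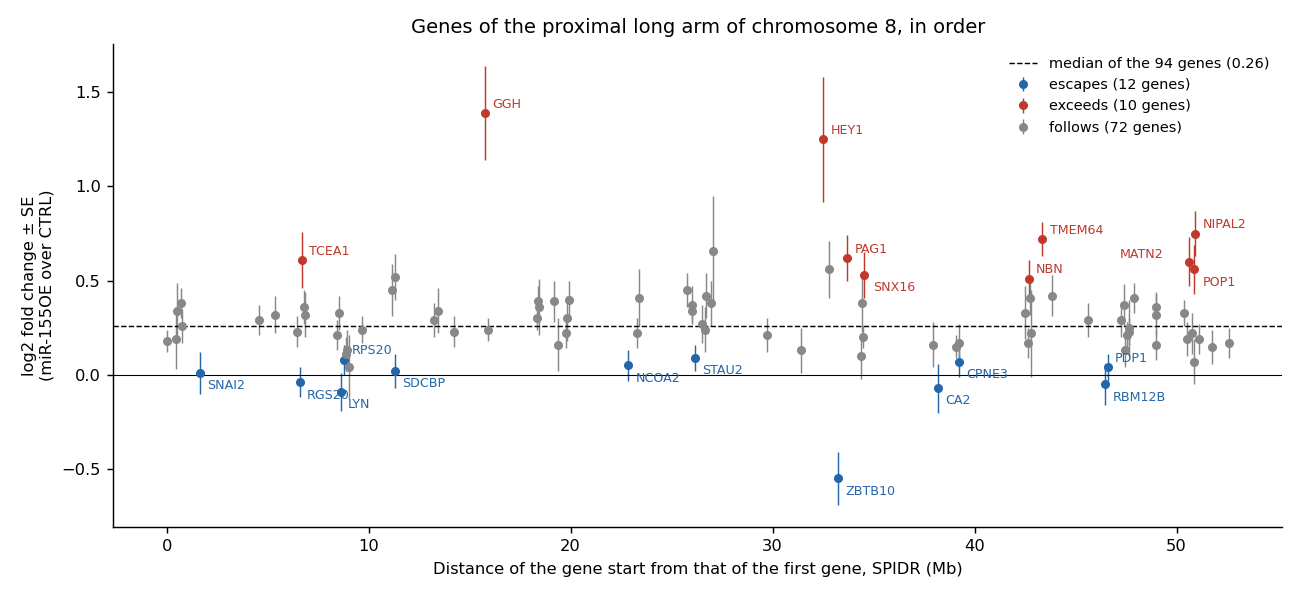
log2 fold change ± SE (miR-155OE over CTRL) of the 94 genes by distance of their start from that of SPIDR, in Mb; colours mark genes that follow, exceed or escape the median of 0.26 (dashed). Exceeding and escaping genes lie scattered among genes that follow, with GGH (1.39) the highest and ZBTB10 (−0.55) the lowest.

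Among the genes that exceeded the rise, GGH stood furthest out. It encodes gamma-glutamyl hydrolase, the lysosomal enzyme that trims polyglutamate tails from folates (ENSG00000137563; GRCh38, chromosome 8, 63015079 to 63039171). It was read at 53.7, 56.5, 66.7 and 75.3 CPM in CTRL replicates 1 to 4 and at 162, 87.4, 245 and 168 CPM in miR-155OE. The groups did not overlap, and as for the median of the window replicate 3 was the highest miR-155OE library and replicate 2 the lowest. GGH rose by a log2 fold change of 1.39 (SE 0.25), or 1.32 (SE 0.17) with the replicate block. It stayed above the median under all 14 other settings, with log2 fold changes from 1.14 without miR-155OE replicate 3 to 1.60 without miR-155OE replicate 2. Its call was lost when any of the first 3 CTRL replicates or miR-155OE replicate 1 was left out.

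NIPAL2, of the NIPA-like family of membrane proteins, and TMEM64, a multi-pass membrane protein, also rose beyond the window. NIPAL2 was at 40.4, 45.6, 45.9 and 57.1 CPM in the CTRL libraries, and the miR-155OE libraries gave 73.2, 68.0, 87.6 and 88.6 CPM (log2 fold change 0.75, SE 0.12). TMEM64 was at 16.9, 15.8, 14.5 and 16.3 CPM in the CTRL libraries, and the miR-155OE libraries gave 26.8, 27.0, 27.8 and 22.7 CPM (0.72, SE 0.09). Neither overlapped between groups. Both exceeded the median under all 14 other settings and kept their call whichever library was left out. For TMEM64 replicate 4 was the lowest miR-155OE library, not replicate 2.

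HEY1, a transcriptional repressor that acts downstream of Notch, was at 4.73, 4.02, 2.20 and 1.81 CPM in the CTRL libraries, and the miR-155OE libraries gave 10.3, 7.53, 7.94 and 4.27 CPM. The lowest miR-155OE library, replicate 4, lay below CTRL replicate 1, so the groups overlapped, while each miR-155OE library lay above the control of its own number. Its log2 fold change of 1.25 (SE 0.33) was not called on group alone and was called with the replicate block (1.28, SE 0.16). TCEA1, the elongation factor TFIIS that restarts stalled RNA polymerase II, was at 212, 218, 278 and 264 CPM in the CTRL libraries, and the miR-155OE libraries gave 360, 283, 466 and 374 CPM. Its groups stood apart (log2 fold change 0.61, SE 0.15), and it too was not called on group alone but with the block (0.60, SE 0.07). HEY1 exceeded the median in 7 of the 8 fits that left out a library, and TCEA1 in 4.

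The other 5 genes that exceeded the rise were called higher, with log2 fold changes from 0.51 to 0.62. PAG1, the membrane adaptor that recruits the kinase CSK against SRC-family kinases, was at 15.4 to 20.8 CPM in the CTRL libraries, against 22.9 to 30.2 CPM in the miR-155OE ones (log2 fold change 0.62, SE 0.12). NBN, the nibrin subunit of the MRN complex of DNA break repair, was at 8.94 to 10.9 and 12.0 to 15.5 CPM (0.51, SE 0.10). SNX16, a sorting nexin of endosomes, stood at 0.53, POP1, a subunit of RNase P and RNase MRP, at 0.56, and MATN2, a matrilin of the extracellular matrix, at 0.60. SNX16 and POP1 exceeded the median in 1 each of the 8 fits that left out a library, NBN in 3, MATN2 in 5 and PAG1 in 7. The call itself held in 1 of those 8 fits for SNX16 and for MATN2, in 2 for NBN and for POP1, and in 3 for PAG1. MATN2 overlaps the ribosomal protein gene RPL30 on the opposite strand, which held far more reads, and NBN overlaps DECR1 (0.41). RPL7 and RDH10 (0.37), CHMP4C and ZFAND1 (0.38), and COX6C and VPS13B (0.15) are other such pairs. Strand was not stated to be used in counting, so reads of an overlap cannot be told apart.

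ZBTB10 was the gene that went against the window. It encodes a zinc finger repressor of SP transcription factor genes (ENSG00000205189; chromosome 8, 80485619 to 80526265). It was at 4.56, 4.37, 5.17 and 4.49 CPM in the CTRL libraries, and the miR-155OE libraries gave 3.40, 2.85, 3.65 and 2.85 CPM, the only one of the 94 in which every miR-155OE library lay below every control. Its log2 fold change of −0.55 (SE 0.14) was not called on group alone. It was called lower with the replicate block (−0.55, SE 0.12) and by DESeq2 (−0.54). It stayed below the median under all 14 other settings. ZBTB10 held 1 match to the miR-155-5p seed, as did 17 other genes of the window with at least 1. An antisense gene over it, AC009812.1, held 119 reads. The nearest of the 94 genes on either side, TPD52 (0.56) and PAG1 (0.62), stood among the higher ones. With 1216 reads it was also the member nearest the read minimum: POP1 with 1344 reads (0.56) and RIDA with 1381 (0.07) came next inside, and PIP4P2 with 1185 (0.38), MRPS28 with 1177 (0.33) and XKR9 with 1148 (0.50) lay just outside.

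Of the 12 genes that escaped, 3 were kinases or signalling genes. LYN, a SRC-family kinase, was at 11.2, 10.2, 12.3 and 9.16 CPM in the CTRL libraries, and the miR-155OE libraries gave 10.1, 10.1, 10.3 and 9.77 CPM (log2 fold change −0.09, SE 0.10). RGS20, which speeds the switching-off of G proteins, was at 22.3, 20.2, 22.0 and 22.0 CPM in the CTRL libraries, and the miR-155OE libraries gave 20.0, 20.7, 23.4 and 20.0 CPM (−0.04, SE 0.08). The groups overlapped in both. The end of RGS20 adjoins TCEA1, which exceeded the rise. LYN, RGS20, ZBTB10 and PDP1, the phosphatase that activates pyruvate dehydrogenase, were the 4 genes that escaped under all 14 other settings. PDP1 was at 26.3 to 28.5 CPM in the CTRL libraries, against 25.8 to 28.8 CPM in the miR-155OE ones (0.04, SE 0.07).

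SNAI2 (Slug), a repressor of keratinocyte differentiation and of E-cadherin, was at 117, 137, 136 and 154 CPM in the CTRL libraries, and the miR-155OE libraries gave 126, 149, 115 and 158 CPM (log2 fold change 0.01, SE 0.11). CA2, the cytosolic carbonic anhydrase, was at 357, 483, 385 and 452 CPM in the CTRL libraries, and the miR-155OE libraries gave 349, 496, 344 and 407 CPM (−0.07, SE 0.13). The groups overlapped in both. Replicate 4 held the highest SNAI2 level and replicate 2 the highest CA2 level in each group. SDR16C5, a retinol dehydrogenase of epithelia, was at 177 to 260 and 164 to 280 CPM (0.04, SE 0.17), and escaped with the replicate block and without miR-155OE replicate 4 (−0.10). SNAI2 and CA2 escaped in 3 and 4 of the 8 fits that left out a library.

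The remaining 6 escaping genes were SDCBP (syntenin, a PDZ adaptor of syndecans, 0.02), RBM12B (an RNA-binding protein, −0.05), NCOA2 (a nuclear receptor coactivator, 0.05), CPNE3 (a copine that binds membranes with calcium, 0.07), RPS20 (0.08) and STAU2 (a double-stranded RNA-binding transport protein, 0.09). All 6 overlapped between groups. Each escaped in 3 to 6 of the 8 fits that left out a library, so for these genes the line between following and escaping depended on the libraries used.

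**Figure D4:**
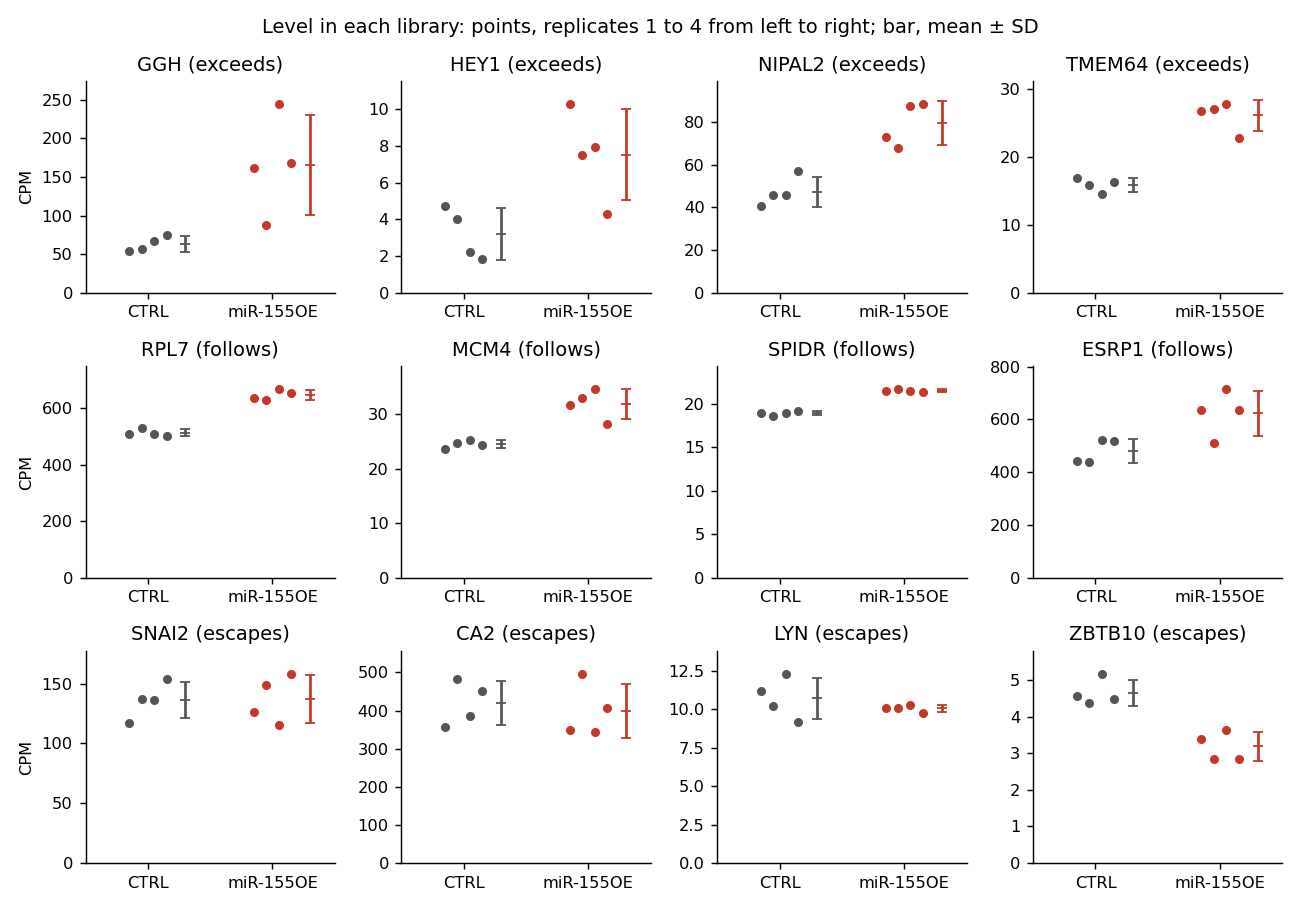
CPM in each library for 4 genes that exceeded the rise, 4 that followed it and 4 that escaped it, on linear axes from 0; points are replicates 1 to 4 from left to right and bars the mean ± SD (n = 4). GGH, NIPAL2 and TMEM64 stand well above the controls, RPL7, MCM4 and SPIDR a step above them, and SNAI2, CA2 and LYN overlap them.

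Genes that followed the rise covered most roles. RPL7, a protein of the large ribosomal subunit and the most abundant of the 94 per length, was at 507, 530, 509 and 502 CPM in the CTRL libraries, and the miR-155OE libraries gave 637, 627, 668 and 654 CPM. The groups were far apart against their spread, and RPL7 rose by a log2 fold change of 0.34 (SE 0.06). SPIDR, a scaffold of homologous recombination, was at 18.9, 18.6, 18.9 and 19.2 CPM in the CTRL libraries, and the miR-155OE libraries gave 21.4, 21.7, 21.5 and 21.3 CPM (0.18, SE 0.06). Its groups did not overlap, yet the difference was not called. ESRP1, the splicing regulator of epithelial cells, was at 444, 440, 523 and 518 CPM in the CTRL libraries, and the miR-155OE libraries gave 634, 509, 716 and 635 CPM. There CTRL replicates 3 and 4 lay above miR-155OE replicate 2. The log2 fold change of 0.37 (SE 0.11) was not called on group alone and was called with the block. ARMC1 (a mitochondrial protein, 0.30), called higher, and WWP1 (a ubiquitin ligase, 0.15), YTHDF3 (a reader of methylated RNA, 0.24) and CHMP4C (an ESCRT protein of cell division, 0.20), not called on group alone, followed it with an SE of 0.06 each.

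The roles were then compared as lists. Beside the counts called in each list, 18.1% of all 94 genes were called higher on group alone and 55.3% with the block. Over all tested genes these shares were 2.17% and 7.43%. The 8 genes of genome upkeep and the cell cycle had a median of 0.32 and all lay above 0, from SPIDR to NBN. MCM4, a subunit of the replicative helicase, was at 23.6 to 25.3 CPM in the CTRL libraries, against 28.2 to 34.6 CPM in the miR-155OE ones and was called higher, as were TERF1, a telomere protein (0.45), and NBN. PRKDC, the catalytic subunit of DNA-PK, was at 69.5 to 93.6 and 74.5 to 125 CPM (0.34, SE 0.15) and was called with the block and not on group alone. CHMP4C, TP53INP1, CSPP1 and SPIDR did not pass on group alone, and 5 of the 8 genes were called with the block.

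Of 8 genes of the ribosome and translation, RPL7 was called on group alone and the other 7 were not (median 0.27), and 2 were called with the block. RPS20, from the small subunit, was at 327, 337, 305 and 292 CPM in the CTRL libraries, and the miR-155OE libraries gave 363, 326, 337 and 310 CPM. RPL30, from the large one, was at 376, 380, 305 and 367 CPM in the CTRL libraries, and the miR-155OE libraries gave 466, 345, 447 and 403 CPM. Both overlapped between groups, unlike RPL7. The 3 proteins join the same particle. RRS1, a ribosome assembly factor, had the highest fold change of the list (0.39, SE 0.11) and was the other gene called with the block.

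The 14 mitochondrial genes all lay above 0 (median 0.31), with ARMC1, MTFR1 (0.39), a regulator of mitochondrial shape, and DECR1 (0.41), an enzyme of unsaturated fatty acid breakdown, called higher on group alone and 6 called with the block. The respiratory subunits lay below the list's median. COX6C of cytochrome c oxidase was at 59.9 to 67.2 CPM in the CTRL libraries, against 63.2 to 77.3 CPM in the miR-155OE ones (0.17, SE 0.08), and UQCRB of cytochrome bc1 at 88.1 to 94.3 and 85.7 to 110 CPM (0.16, SE 0.08). GDAP1, of mitochondrial fission, had a log2 fold change of 0.66 (SE 0.29) with overlapping groups and was not called on group alone. With the block it was called higher (0.63, SE 0.13) and exceeded the rise. Its gene overlaps that of JPH1 (0.38), a junctophilin.

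Transcription factors and chromatin proteins held 5 of 8 genes off the rise, the most of any list here, beside 10 exceeding and 12 escaping of all 94 genes. Of the 8, HEY1 and TCEA1 exceeded the rise, ZBTB10, SNAI2 and NCOA2 escaped it and PLAG1, CEBPD and CHD7 followed it, with a median of 0.15 and 0 called on group alone (3 higher and 1 lower with the block). In the 8 fits that left out a library, ZBTB10 kept its class in 8, HEY1 in 7, NCOA2 in 6, TCEA1 in 4 and SNAI2 in 3. Among the 8 kinases and signalling genes, 1 exceeded the rise and 3 escaped it. None of the 11 genes of ubiquitin, autophagy and protein turnover exceeded or escaped it. Those ran from WWP1 (0.15) to UBXN2B (0.45), a cofactor of the ATPase p97 (median 0.27), with 0 called on group alone and 8 with the block. No test of a difference between the lists was made.

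Of 8 RNA-processing genes, POP1 was called on group alone and 6 with the block (median 0.27). Of these, VIRMA, the scaffold of the m6A writer (0.29), and INTS8 of the Integrator complex (0.21) were called with the block and not on group alone. Among 16 genes of membrane traffic, all above 0, SNX16, TMEM64 and PLEKHF2, an endosomal protein (0.41), were called on group alone and 10 with the block (median 0.22). Of 8 kinases and signalling genes, PAG1 and MTDH, a membrane-bound adaptor (0.33), were called on group alone and 4 with the block, and LYN, RGS20 and CPNE3 escaped (median 0.26). Among 10 enzymes of lipids and small molecules, GGH and PTDSS1, a phosphatidylserine synthase (0.36), were called on group alone and 6 with the block, and CA2 escaped (median 0.24). MATN2 was called and JPH1 was not in the 2 genes of matrix and membrane junctions. The 5 genes in no list were ZC2HC1A, OSGIN2, CALB1, TRIQK and NIPAL2.

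**Figure D5:**
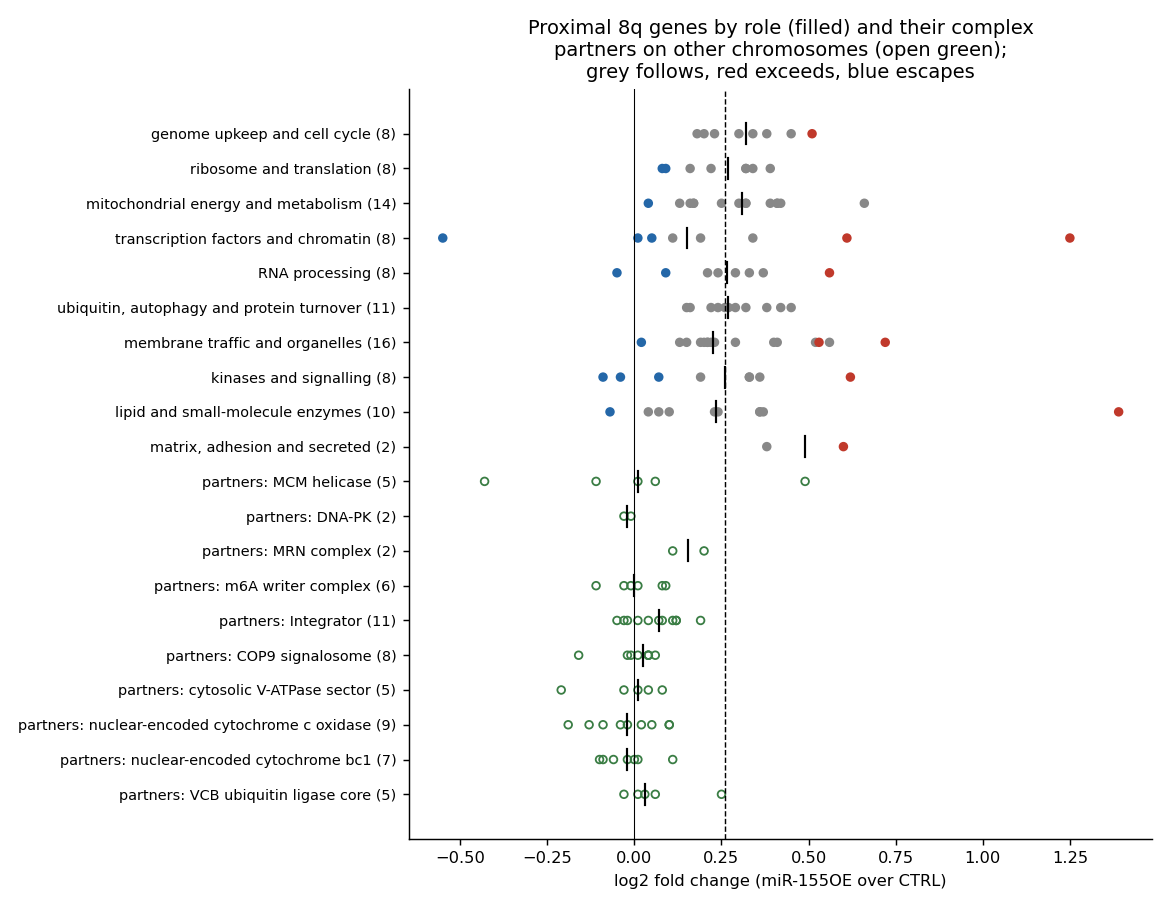
log2 fold change (miR-155OE over CTRL) of each gene, by role for proximal 8q genes (filled; grey follows, red exceeds, blue escapes) and by complex for their partners on other chromosomes (open); numbers of genes are in brackets, short bars are medians and the dashed line is 0.26. Medians of the proximal 8q lists lie between 0.15 and 0.49 and those of the partner lists between −0.02 and 0.16.

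Many of these proteins work in complexes whose other subunits are encoded elsewhere. The window was not picked on those partners, so they were read from the same fit with its test. Of 60 partners on other chromosomes, 0 were called by edgeR on group alone, 0 with the replicate block, 0 by DESeq2 and 0 by limma voom, and 5 (8.33%) had an unadjusted p under 0.05, beside 19.3% of all tested genes. Called on group alone were 3.22% of all genes, and 12.6% with the block. Their median log2 fold change was 0.01, and 34 lay above 0. Without miR-155OE replicate 2, 1 partner was called higher, VHL (0.32, edgeR adjusted p = 0.0455), which stood at 0.25 over all libraries (edgeR adjusted p = 0.158).

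The separate complexes gave similar pictures. Against MCM4 at 0.38, the other 5 helicase subunits ranged from −0.43 to 0.49 (median 0.01). The highest, MCM2, had a CTRL level of 2.42 ± 0.492 CPM against 3.39 ± 0.450 CPM under overexpression (SD, n = 4; edgeR adjusted p = 0.165). Beside PRKDC at 0.34, the Ku subunits XRCC5 and XRCC6 lay at −0.03 and −0.01, and beside NBN at 0.51, MRE11 was at 0.20 (edgeR adjusted p = 0.207) and RAD50 at 0.11. Partners of VIRMA had a median of 0.00 over 6 genes and those of INTS8 one of 0.07 over 11. COPS5, the catalytic subunit of the COP9 signalosome, stood at 0.22 and its 8 partners at a median of 0.02. ATP6V1H of the V-ATPase stood at 0.23 and 5 partners at 0.01, and ELOC, an adaptor of cullin ligases, at 0.24 and 5 partners at 0.03. For the respiratory complexes, 9 partners of COX6C and 7 of UQCRB each had a median of −0.02. These are side-by-side values, and the difference between a gene and its partners was not tested.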

How the data were processed

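Every fit started from the authors' deposited raw counts per gene. HISAT2 2.0.5 and featureCounts 1.5.0-p3 are named, per the submitters' processing notes, with DESeq2 and GRCh38; strand setting and annotation release are not given in the sources used here. The authors' deposited table gives a log2 fold change and an adjusted p-value per gene and was used only for its calls. In R 4.3.3, edgeR 4.0.16 kept 15135 genes (filterByExpr), scaled with TMM and fitted group alone by quasi-likelihood, with Benjamini-Hochberg adjustment over all of them at 0.05. Intervals at 95% came from a fit with the null value moved to the median of the 94 genes. SEs were derived from the fold change and its F statistic. Where the fold change lay nearer to 0 than to that median, the SE came from the distance to the median and the F statistic of the moved fit. DESeq2 1.42.0, limma 3.58.1 and a replicate block were alternatives. Libraries that share a replicate number deviated together from their group means (r of 0.578, 0.497, 0.184 and 0.607 across 10267 genes), and were treated as pairs in the block. Of the pairs with different numbers, 4 also correlated positively: CTRL 4 with miR-155OE 3 (0.399), CTRL 3 with miR-155OE 4 (0.203), CTRL 2 with miR-155OE 1 (0.267) and CTRL 1 with miR-155OE 2 (0.275). CTRL 3 thus followed miR-155OE 4 a little more closely than its own number, and miR-155OE 3 followed CTRL 4 more closely than its own. Every pair that joins replicate 1 or 2 with replicate 3 or 4 correlated negatively, from −0.103 to −0.574. The labels do not state pairs, so calls with the block rest on pairing by number. Fits were tested on simulated data.

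The window, the lists and the rule for named genes were chosen with earlier results of these data known. Named were the 8 highest and 8 lowest fold changes, the 6 highest levels per length, the 6 following genes with the smallest SE, the extremes of each list, subunits of the complexes and TP53INP1. Other genes given as examples were chosen after their values were seen. 1 cell type marker is not reported here.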

Additional observations from a re-analysis of the deposited data

Results flagged for a closer look

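Of 82 groups of 4 libraries checked for the named genes, 5 held 1 library far from the other 3 by Dixon's ratio at its 95% critical value; chance alone flags about 1 in 20. CTRL replicate 2 lay below the other controls for RGS20 (20.2 CPM) and ATP6V1H (93.5 CPM), CTRL replicate 3 below them for RPL30 (305 CPM), and CTRL replicate 4 above them for POP1 (4.23 CPM). In miR-155OE, replicate 4 lay below the others for PDP1 (25.8 CPM).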

How the results depend on the processing

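The median of the 94 genes stayed between 0.22 and 0.31 in every setting tried. The genes called higher numbered 17, and 37 with DESeq2 and 52 with the replicate block; 0 were called lower, and 1 with either of those, ZBTB10 in both. For DESeq2 and for the fits without 1 library, the share of all genes called is not given here. Leaving out 1 library at a time gave 2 to 40 called higher, 5 to 12 that exceeded the rise and 4 to 15 that escaped it. Lowest were 5 exceeding without CTRL replicate 1 (6 without CTRL replicate 3) and 4 escaping without miR-155OE replicate 3 (7 without CTRL replicate 1, 5 without CTRL replicate 2). Partners called numbered 0 to 1 without 1 library. Of the 10 exceeding genes 3 kept that class in all 8 such fits, of the 12 escaping 4 and of the 72 following 61. Signs turned for CA2 (0.01 without CTRL replicate 2), RBM12B (0.03 without miR-155OE replicate 3), SNAI2 (−0.05, −0.03 and −0.06 without CTRL replicate 1 and miR-155OE replicates 2 and 4), SDCBP (−0.03 and −0.06 without CTRL replicate 4 and miR-155OE replicate 2) and SDR16C5 (−0.04 and −0.10 without CTRL replicate 1 and miR-155OE replicate 4), all near 0. Without 1 library these genes ranged from −0.19 to 0.01 (CA2), −0.13 to 0.03 (RBM12B), −0.06 to 0.09 (SNAI2), −0.06 to 0.08 (SDCBP) and −0.10 to 0.16 (SDR16C5). The causes were not tested. Chosen after seeing the data, leaving out genes that overlap another gene with at least 5% of their reads kept 70 genes, 12 called higher and a median of 0.26. Read minimums of 600 and 2400 gave 103 and 82 genes with medians of 0.29 and 0.25. Total counts of 33.4 to 52.7 M limit what a fold change of this size shows in genes near the read minimum.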

Other observations

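Other transcripts of the window, outside the protein-coding rule, can be set beside the 94 genes. Among noncoding genes with the same read minimum there were 5, of which 4 lay above 0: the small nucleolar RNA host SNHG6 (log2 fold change 0.21, SE 0.11), OTUD6B-AS1 (0.32, SE 0.10), AC009902.2 (0.24, SE 0.35) and AP003352.1 (0.06, SE 0.41). The pseudogene RPSAP47 stood at −0.52 (SE 0.41), and its reads may be shared with the gene it copies. None of the 5 was called. Of 100 protein-coding genes under the read minimum, 30 had 0 reads and 31 had enough to be tested. Those 31 had a median of 0.33, with 23 above 0.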
